A study of Danio rerio with 3 samples.

Results

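The 84 genes described here encode the proteins of the cytosolic ribosome, or carry their symbols. They were chosen from the 32520 genes listed in the files by symbol alone: every symbol that opens with rpl or rps and a digit, without the kinases named rps6k, plus the stalk genes rplp0, rplp1, rplp2 and rplp2l. By symbol, 35 belonged to the small subunit, 45 to the large subunit and 4 to the stalk. Not all of the 84 are ribosomal subunits. The entries rps19bp1 and rpl7l1 name other proteins (rps19bp1 a binding partner of Rps19, rpl7l1 a factor of ribosome assembly), and the reference name table gives COA1 and RFC1 for a second rpl37 entry (ENSDARG00000076360) and for an rpl9 entry (ENSDARG00000054799). Those 4 entries and rpl26 were among the 6 lowest of the 84. The rule left out 6 further ribosomal protein genes, among them rpsa, faua and RPL37A, which were followed as a separate list.

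Single cells were sorted from dissociated heart ventricles of EK zebrafish carrying tcf21:nucEGFP, at 6 months of age. Live cells with nuclear EGFP, driven by tcf21 regulatory sequence, were taken, so the sort was meant to leave out cells without reporter signal. The untreated library (Ctrl) came from uninjured clutchmates, and the other 2 libraries came from fish whose ventricle was partially amputated, 3 or 7 days before collection (3 dpa and 7 dpa). Each condition had 1 library, so the comparisons have no replicate check and no test across samples. The intervals given are 95% exact intervals that cover counting error only, and an effect of the condition cannot be told apart from one of the library.

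The cytosolic ribosome is built from a small subunit, which reads the mRNA, and a large subunit, which joins the amino acids. The stalk proteins Rplp0, Rplp1 and Rplp2 recruit the factors that drive elongation. Most vertebrate ribosomal protein mRNAs carry a 5′ terminal oligopyrimidine tract, through which mTOR signalling controls their translation, so their mRNA level is only one of the layers that set how many ribosomes a cell makes. Zebrafish keep a few of these genes as duplicated or related pairs, such as rpl5a and rpl5b or rpl22 and rpl22l1.

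The files held 5284, 4390 and 7002 droplets at Ctrl, 3 dpa and 7 dpa, of which 5098, 3905 and 6624 were kept. The median depth of the kept cells was 4311.5, 9623 and 5435.5 UMIs, so the 3 dpa library was the deepest per cell. Pairs of libraries shared 6 to 12 barcodes. Cells were clustered again without the genes under study, and the clusters were named from marker lists, so class names carry the ending -like. Epithelial-like cells numbered 278, 971 and 1346 at Ctrl, 3 dpa and 7 dpa, and mesenchymal-like cells numbered 4098, 2071 and 4653, in 3 subsets marked by inhbb, ptger2b or tnfsf12. Cells resembling the activated progenitors (aEPC-like) numbered 480 at 3 dpa but only 4 at Ctrl and 28 at 7 dpa, and a cluster led by col18a1a and fndc1 stayed unnamed because no marker list had 50% of its genes raised there. The 12 epithelial markers summed to 390.8 to 467.5 UMIs per 10000 in epithelial-like cells and to 88.4 to 131.5 in mesenchymal-like cells. The sort also held 405 immune-like, 167 cardiomyocyte-like and 59 endothelial-like cells. The paper holds that its immune, cardiac muscle and endothelial clusters appear to be contaminating cells or doublets. Over all libraries the 20 mesenchymal markers summed to 151.2 in cardiomyocyte-like cells, beside 204.2 in mesenchymal-like and 68.9 in epithelial-like cells.

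These genes gave 30.2% of all UMIs, and the totals of the libraries differed little while the 2 main epicardial classes differed in opposite directions. Over all kept cells the share was 29.7%, 30.4% and 30.1% at Ctrl, 3 dpa and 7 dpa, and in the droplets left out it was 21.0%, 22.1% and 19.6%. In epithelial-like cells it was 36.8%, 29.9% and 32.2%, highest in uninjured hearts. In mesenchymal-like cells it was 28.6%, 32.5% and 29.1%, highest at 3 dpa. The aEPC-like cells stood at 28.3% at 3 dpa.

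**Figure D1:**
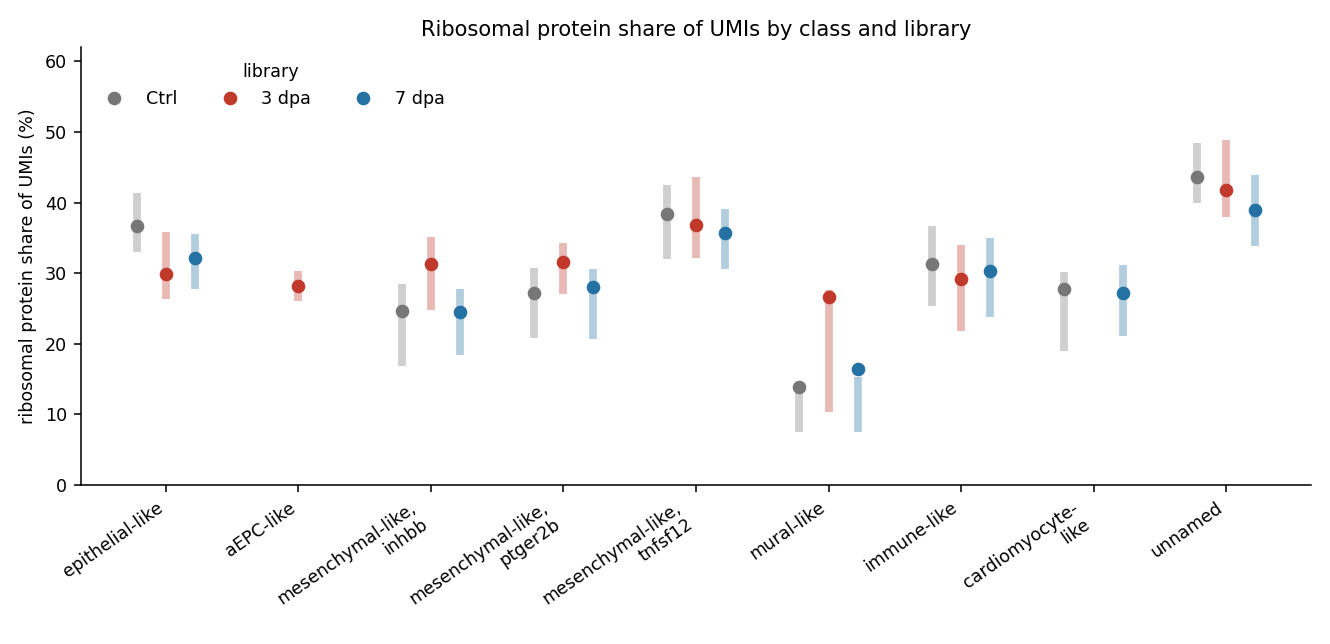
Share of UMIs from the 84 genes (y axis, %) in each class or mesenchymal-like subset (x axis) at Ctrl, 3 dpa and 7 dpa; points are the summed UMIs of a group, bars run from the first to the third quartile over single cells, and groups under 50 cells are not drawn. The epithelial-like points lie at 36.8%, 29.9% and 32.2% in the order Ctrl, 3 dpa and 7 dpa, while the unnamed cluster lies at 39.0% or more in all 3 libraries and mural-like cells at 13.9% at Ctrl.

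The classes spread much further apart than the totals of the libraries did, though within a class the libraries also differed. Mural-like cells, which carry markers of pericytes and vascular smooth muscle, had the lowest shares, 13.9%, 26.6% and 16.4% at Ctrl, 3 dpa and 7 dpa, and their median depth was 1547, 3485 and 1471 UMIs. The mural-like sum at 3 dpa rested on its 36 deepest cells, with a median of 20598 UMIs and a share of 28.1%. The shallowest tertile had 10.7%. Summed as above, the 10 aEPC markers stood in mural-like cells at 6.77, 40.5 and 7.49 at Ctrl, 3 dpa and 7 dpa. At 3 dpa they stood at 78.1 in aEPC-like and 25.6 in mesenchymal-like cells. The 12 mural markers stood in mural-like cells at 92.8, 107.9 and 104.2. After log normalization 63 cells at 3 dpa were mural-like, against 110 in the report's classes. The part of aEPC-like cells in the 26.6% was not tested. The unnamed cluster had the highest ribosomal protein shares, 43.6%, 41.8% and 39.0%. Its median depth was 2223, 3098 and 2130 UMIs, so these highest shares came from shallow cells. Immune-like cells had 31.3%, 29.2% and 30.3%. Within the mesenchymal-like class, the tnfsf12 subset held 38.3%, 36.9% and 35.7%, the ptger2b subset 27.14%, 31.6% and 28.1%, and the inhbb subset 24.7%, 31.2% and 24.4%.

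The tnfsf12 subset therefore exceeded the inhbb subset in every library, by a share ratio of 1.551 (95% interval 1.548 to 1.555) at Ctrl, 1.18 at 3 dpa and 1.46 at 7 dpa. A gene was counted as past the fold when its level was at least 25% higher, or at least 20% lower, and both groups together held 100 UMIs of it. At Ctrl 76 of the 81 members with enough UMIs were higher past the fold in the tnfsf12 subset, against 12.5% of all genes tested in that comparison, and 1 was lower (57.4% of all genes). The median member stood at 0.67 on the log2 scale while the median of all genes stood at -0.43. At 3 dpa only 10 of 81 members were that much higher and 0 lower (13.5% and 34.8% of all genes), and at 7 dpa 76 of 82 were higher and 2 lower (13.4% and 51.4% of all genes).

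In mesenchymal-like cells the ribosomal protein share was 32.5% at 3 dpa against 28.6% at Ctrl, a ratio of 1.137 (1.135 to 1.138). By subset the summed share was higher at 3 dpa in the inhbb and ptger2b subsets and lower in the tnfsf12 subset (36.9% against 38.3%). As a mean of single-cell shares the tnfsf12 subset lay higher at 3 dpa instead (37.7% against 37.1%). Of 82 members tested, 22 were higher past the fold at 3 dpa, where 40.7% of all genes were, and 9 were lower past it, where 27.3% of all genes were. The median member stood at 0.19 on the log2 scale, near the median of 0.14 over all genes. After scaling on that shift the share ratio was 1.03, with 10 members higher and 14 lower. How many of all genes passed the fold under that scaling is not given here. At 7 dpa the share was 29.1% against 28.6% at Ctrl (ratio 1.02), with 3 members higher and 2 lower past the fold (29.1% and 21.2% of all genes), and that ratio lay on the other side of 1 under median scaling (0.979). By subset, the 7 dpa share was above Ctrl only in the ptger2b subset, and below it in the tnfsf12 subset (35.7% against 38.3%) and the inhbb subset (24.4% against 24.7%).

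Epithelial-like cells, the outer mesothelial layer of the heart, stood the other way round. Their share was 29.9% at 3 dpa against 36.8% at Ctrl, a ratio of 0.8136 (0.8120 to 0.8153), and 42 of 82 members were lower past the fold, where 21.4% of all genes were, while 3 were higher (52.6% of all genes). Here the median member stood at -0.35 on the log2 scale and the median of all genes at 0.37, so relative to that shift the share ratio was 0.629 and 73 members were lower past the fold. That scaling lowers the ratio of every gene, and how many of all genes were then lower past the fold is not given here. At 7 dpa the share was 32.2% against 36.8% at Ctrl (0.875), with 19 of 82 members lower (24.9% of all genes) and 2 higher (30.6% of all genes). Low ratios at 7 dpa included those of rpl26 at 0.538 and rps28 at 0.683.

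The number of UMIs per cell from these genes tells the same comparison from the other side. An average epithelial-like cell held 4544, 4614 and 3513 ribosomal protein UMIs at Ctrl, 3 dpa and 7 dpa, and 7818, 10813 and 7404 UMIs from all other genes. At 3 dpa the ribosomal protein UMIs per epithelial-like cell were thus close to those at Ctrl, and it was the other UMIs that were more numerous. An average mesenchymal-like cell held 1386, 3050 and 1707 ribosomal protein UMIs, and 3464, 6340 and 4162 others. UMIs per cell also scale with the depth of a library, and the part of depth in these differences was not tested.

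By summed UMIs, the order of the 2 classes differed between libraries. At Ctrl the epithelial-like share exceeded the mesenchymal-like share by a ratio of 1.286 (1.284 to 1.289), and 62 of 82 members were higher past the fold in epithelial-like cells, where 35.6% of all genes were, against 2 that were lower (36.2% of all genes). At 3 dpa the ratio was 0.9208 (0.9197 to 0.9219), and 2 of 83 members were higher and 2 lower past the fold (44.9% and 21.0% of all genes). Under median scaling it was 0.773 with 64 members lower, but as a mean of single-cell shares it was 1.02, so the side of 1 at 3 dpa depended on how cells were weighed. The count of all genes lower past the fold under median scaling is not given here. At 7 dpa the ratio was 1.106 (1.105 to 1.108), with 3 of 83 members higher and 1 lower past the fold (32.0% and 28.1% of all genes). Among the subunit genes at Ctrl, rps20 and rpl23a had the highest epithelial-like over mesenchymal-like ratios, 1.57 and 1.53, and rpl39 was level at 0.994, while rps19bp1 stood at 2.11 and rpl7l1 at 0.551. At 3 dpa the lowest subunit genes were rplp2 at 0.771 and rpl31 at 0.809.

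Set against 3 dpa in place of Ctrl, the 7 dpa library put the summed shares of the classes on opposite sides of 1, though not at matched depth. In mesenchymal-like cells the share at 7 dpa was 29.1% against 32.5% at 3 dpa (ratio 0.895), and 5 of 83 members were higher and 17 lower past the fold (22.9% and 31.6% of all genes). In epithelial-like cells it was 32.2% against 29.9% (1.08), with 19 higher and 5 lower (18.2% and 45.7% of all genes). Among cells of 5000 to under 10000 UMIs, a window chosen after seeing the data, both classes lay lower at 7 dpa, epithelial-like cells at 30.3% against 34.6% at 3 dpa and mesenchymal-like cells at 30.0% against 32.8%. The members highest in the epithelial-like comparison were rpl26, rplp2 and rpl22, at ratios of 2.65, 1.87 and 1.83, and the lowest was rps27l at 0.436.

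Mesenchymal-like cells of the same library also served as the base for the other classes. For aEPC-like cells at 3 dpa the share ratio was 0.870 over mesenchymal-like cells, with 4 of 83 members higher and 15 lower past the fold (55.4% and 22.9% of all genes). In mural-like cells at Ctrl the ratio was 0.486, with 2 of 82 members higher and 78 lower (50.6% and 28.5% of all genes). The highest ratio there was that of rpl7l1, the assembly factor, with 3.54 UMIs per 10000 in mural-like cells against 1.07 in mesenchymal-like cells. In the unnamed cluster 78, 60 and 75 of 82 members were higher at Ctrl, 3 dpa and 7 dpa (13.3%, 17.1% and 20.3% of all genes), and 1, 3 and 2 were lower (59.4%, 53.6% and 48.9% of all genes). Immune-like cells lay nearer to the base, with ratios of 1.097, 0.897 and 1.04, 11, 2 and 6 members higher (38.4%, 42.8% and 38.5% of all genes) and 3, 4 and 3 lower (40.8%, 35.1% and 38.9% of all genes). In the unnamed cluster at Ctrl the highest subunit gene was rps29, at 77.5 against 47.1 UMIs per 10000, and in immune-like cells rps20 stood at 66.3 against 42.5.

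The share varied with depth inside the classes. In mesenchymal-like cells of the Ctrl library it was 19.9% in the tertile of cells with the fewest UMIs, 26.2% in the middle tertile and 32.9% in the tertile with the most, and at 7 dpa it was 21.0%, 26.9% and 32.4%. In epithelial-like cells at 3 dpa it ran the other way, 35.1%, 30.2% and 28.6%. In the window of 5000 to under 10000 UMIs, mesenchymal-like cells had 32.1%, 32.8% and 30.0% at Ctrl, 3 dpa and 7 dpa, and epithelial-like cells 37.1%, 34.6% and 30.3%. In that window the mesenchymal-like ratio of 3 dpa over Ctrl was 1.02 and of 7 dpa over Ctrl 0.934, and the epithelial-like ratios were 0.933 at 3 dpa and 0.818 at 7 dpa, so the lowest epithelial-like share was then that of 7 dpa. Epithelial-like over mesenchymal-like was 1.16 at Ctrl and 1.06 at 3 dpa, and at 7 dpa the classes were close, at 30.3% and 30.0%. Depth still differed inside the window, with Ctrl medians of 8438.5 UMIs in epithelial-like and 6286 in mesenchymal-like cells. The tnfsf12 subset stayed above the inhbb subset in this window, at 39.6%, 40.3% and 35.4% against 29.2%, 32.3% and 26.6% at Ctrl, 3 dpa and 7 dpa.

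**Figure D2:**
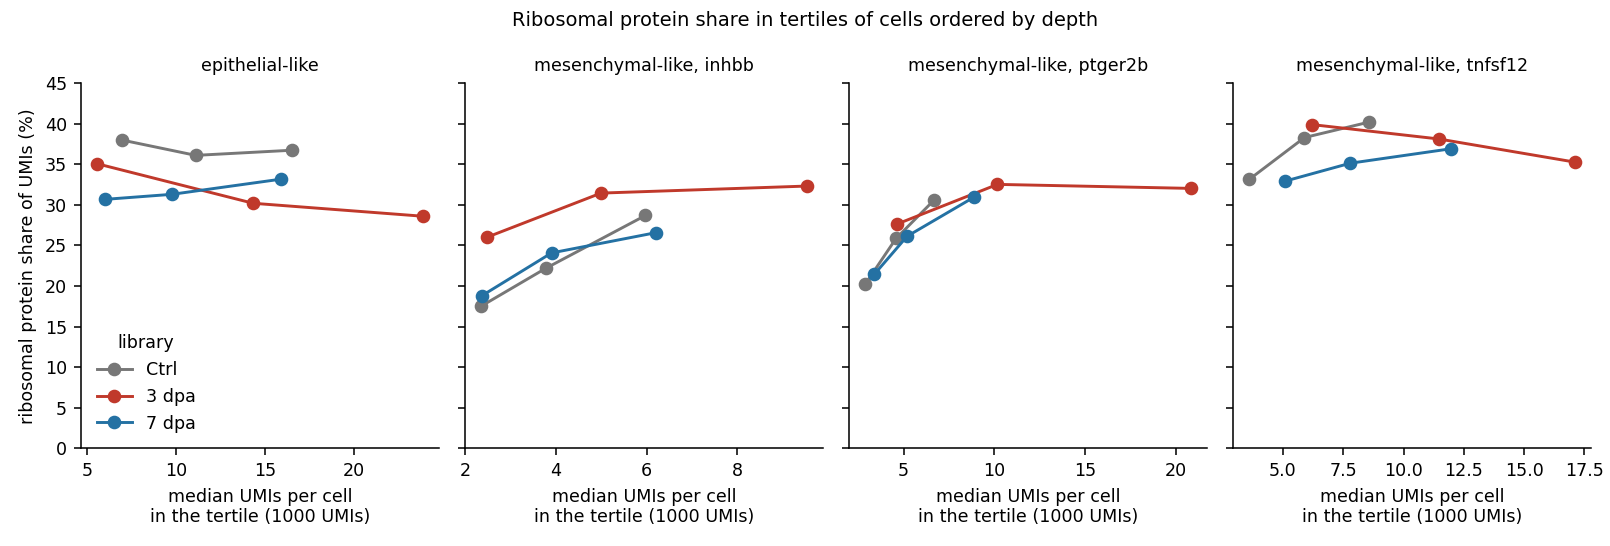
Share of UMIs from the 84 genes (y axis, %) against the median UMIs per cell (x axis, in 1000 UMIs) in tertiles of cells ordered by depth, for epithelial-like cells and the 3 mesenchymal-like subsets in each library; lines join the tertiles of one library. Epithelial-like cells at 3 dpa lie at 35.1% in the shallowest tertile and 28.6% in the deepest, and in the inhbb and ptger2b subsets the deepest tertile lies highest at Ctrl and 7 dpa.

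Immediate early and heat shock genes, which dissociation of tissue is known to induce, ran opposite to the ribosomal protein share within epithelial-like and mesenchymal-like cells. Across libraries they did so in mesenchymal-like but not in epithelial-like cells. Their 21 members summed in mesenchymal-like cells to 310.3, 139.4 and 231.9 UMIs per 10000 at Ctrl, 3 dpa and 7 dpa, and to 125.6, 78.4 and 121.0 in epithelial-like cells, where Ctrl had both the highest level of these genes and the highest ribosomal protein share. Within mesenchymal-like cells at Ctrl, the tertile with the lowest level of these genes had a ribosomal protein share of 33.0% and the tertile with the highest had 21.9%. The median depth of these tertiles was 5379.5 and 3475 UMIs, and the share in this class at Ctrl was also lower in shallower cells. The part of depth in this contrast was not tested. Within epithelial-like cells the same tertiles had 41.6% and 33.0% at Ctrl, 31.4% and 29.2% at 3 dpa, and 33.2% and 30.5% at 7 dpa, lower in each library where these genes were high. Their median depth was 9658 and 11539 UMIs at Ctrl, 8514.5 and 16818 at 3 dpa, and 8003 and 10595 at 7 dpa. In the tnfsf12 subset at 3 dpa the same tertiles had shares of 36.8% and 36.9%. The part of these genes in the differences between libraries was not tested.

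Single members varied widely around the sum. The small-subunit gene rps12 gave 8.98% of all ribosomal protein UMIs (271 UMIs per 10000 of all UMIs), followed by the stalk genes rplp0 with 2.68% and rplp1 with 2.62%, and then by rps2, rps20, rpl19, rpl39, rps14, rpl36a and rps7 with 2.22% to 1.78%. The first 24 members made up 50.5% of the sum. UMIs mark captured 3′ ends, so this order ranks captured counts and not protein or transcript numbers. At the low end, rpl26 gave 0.0154% of the sum, although Rpl26 is a core protein of the large subunit.

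For a few members the part of the ribosomal protein pool differed in the same direction in unlike cell classes. Compared with Ctrl, 78 members had enough UMIs in each of 7 groups of cells: epithelial-like, the 3 mesenchymal-like subsets, mural-like, unnamed and immune-like. At 3 dpa, rps20, rpl11 and rpl22l1 took at least 25% more of the pool in all 7, and rps28, rpl38, rps21, rpl29 and the main rpl37 entry (ENSDARG00000034291) at least 20% less in all 7. How many of all genes would pass such limits in all 7 is not given here, so these members have no base to be set against. At 7 dpa no member passed either limit in all 7, but most of these genes kept their direction. There rpl22l1 took at least 25% more in 6 of the 7, and both rpl22l1 and rps20 took more than at Ctrl in all 7. rps28, rpl38, rpl29 and the main rpl37 entry took less in all 7, while rpl11 and rps21 lay on both sides of 1. The 3 dpa differences were therefore also present in immune-like and unnamed cells, and whether they belong to the library or to injury cannot be told apart.

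The largest of these differences was that of rpl22l1, which encodes a paralog of the large-subunit protein Rpl22. In mesenchymal-like cells it stood at 3.32, 10.9 and 7.00 UMIs per 10000 at Ctrl, 3 dpa and 7 dpa, a 3 dpa over Ctrl ratio of 3.30 (3.21 to 3.39). In epithelial-like cells it stood at 4.91, 10.3 and 7.42, a ratio of 2.11 (2.004 to 2.22). The partner rpl22 was lower at 3 dpa, with 33.6, 24.3 and 34.4 UMIs per 10000 in mesenchymal-like cells. As a share of the pair, rpl22l1 took 9.76%, 32.4% and 15.8% in epithelial-like cells, 8.98%, 31.1% and 16.9% in mesenchymal-like cells and 31.4% in aEPC-like cells at 3 dpa. In immune-like cells it took 12.1%, 21.2% and 13.8%, the smallest difference of 3 dpa from Ctrl among the groups drawn.

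The stalk pair rplp2 and rplp2l showed a different distribution over classes. At Ctrl rplp2 took 39.3% of the pair in epithelial-like cells and 39.6% in mesenchymal-like cells, and at 7 dpa 38.5% and 39.5%. At 3 dpa it took 23.6% and 26.5%, and in aEPC-like cells 17.3%. In immune-like cells it took 37.0%, 35.7% and 39.8% at Ctrl, 3 dpa and 7 dpa. At resolution 0.5 immune-like cells formed 2 clusters, with 56, 62 and 86 cells in 1 and 36, 73 and 92 in the other. The part of the library and of this cell mix was not tested. Of the other pairs, rpl5b took 29.7%, 21.2% and 28.4% of rpl5a and rpl5b in mesenchymal-like cells, and rps26 took 41.9%, 42.2% and 44.1% of rps26 and rps26l. Pairs of near-identical genes can share reads, and how reads that fit both copies were counted was not examined here.

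**Figure D3:**
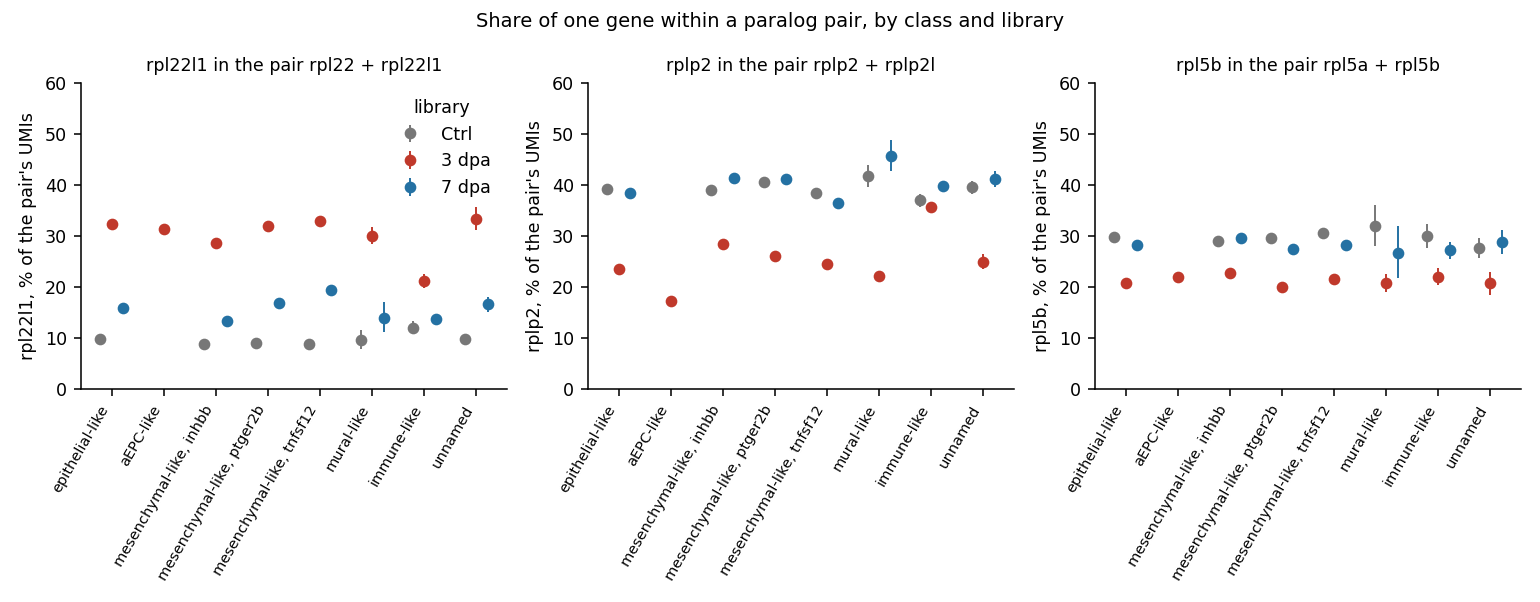
Share of a gene pair's UMIs taken by rpl22l1, rplp2 and rpl5b (y axes, %) in each class or subset (x axis) at Ctrl, 3 dpa and 7 dpa; bars are 95% exact binomial intervals for counting error. The 3 dpa points of rpl22l1 sit at 28.6% or more outside immune-like cells (21.2%), and rplp2 at 3 dpa lies at 28.5% or less everywhere except in immune-like cells (35.7%).

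Of the rps27 genes, rps27l and rps27.2 differed in opposite directions at 3 dpa in epithelial-like and mesenchymal-like cells. rps27l, whose human counterpart is a known target of the tumour suppressor p53, stood in mesenchymal-like cells at 1.14, 3.99 and 1.79 UMIs per 10000 at Ctrl, 3 dpa and 7 dpa, a 3 dpa over Ctrl ratio of 3.50 (3.34 to 3.67). In epithelial-like cells it stood at 1.59, 4.43 and 1.93 (ratio 2.78, 2.54 to 3.03). At 3 dpa it varied between mesenchymal-like subsets, with 5.76 UMIs per 10000 in the ptger2b subset, 2.57 in the tnfsf12 subset and 1.99 in the inhbb subset, while rpl22l1 had 10.5, 13.3 and 10.2 in the same subsets. The unnamed cluster had 1.30, 1.44 and 1.04. Its relative rps27.2 was lower at 3 dpa, with 18.5, 8.64 and 13.8 in epithelial-like cells at Ctrl, 3 dpa and 7 dpa.

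Among the members with higher levels, rps20 stood in mesenchymal-like cells at 42.5, 78.5 and 54.0 UMIs per 10000 at Ctrl, 3 dpa and 7 dpa (ratio of 3 dpa over Ctrl 1.85, 1.83 to 1.86), against 66.5, 77.1 and 68.3 in epithelial-like cells. rps28 stood at 50.6, 33.2 and 40.7 in mesenchymal-like cells and at 65.3, 30.3 and 44.6 in epithelial-like cells, ratios of 0.656 and 0.464. rpl38 stood at 36.5, 25.9 and 31.5 in mesenchymal-like cells. rpl26, at very low counts, stood at 0.809, 0.243 and 0.546 in mesenchymal-like cells (log2 ratio -1.74) and at 0.969, 0.197 and 0.521 in epithelial-like cells. In both classes the small-subunit genes took a larger part of the pool at 3 dpa: 46.2%, 48.2% and 47.0% in mesenchymal-like cells and 46.3%, 49.1% and 47.4% in epithelial-like cells. Without rps12 those values were 41.5%, 42.6% and 42.1%, and 41.9%, 43.3% and 42.6%.

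**Figure D4:**
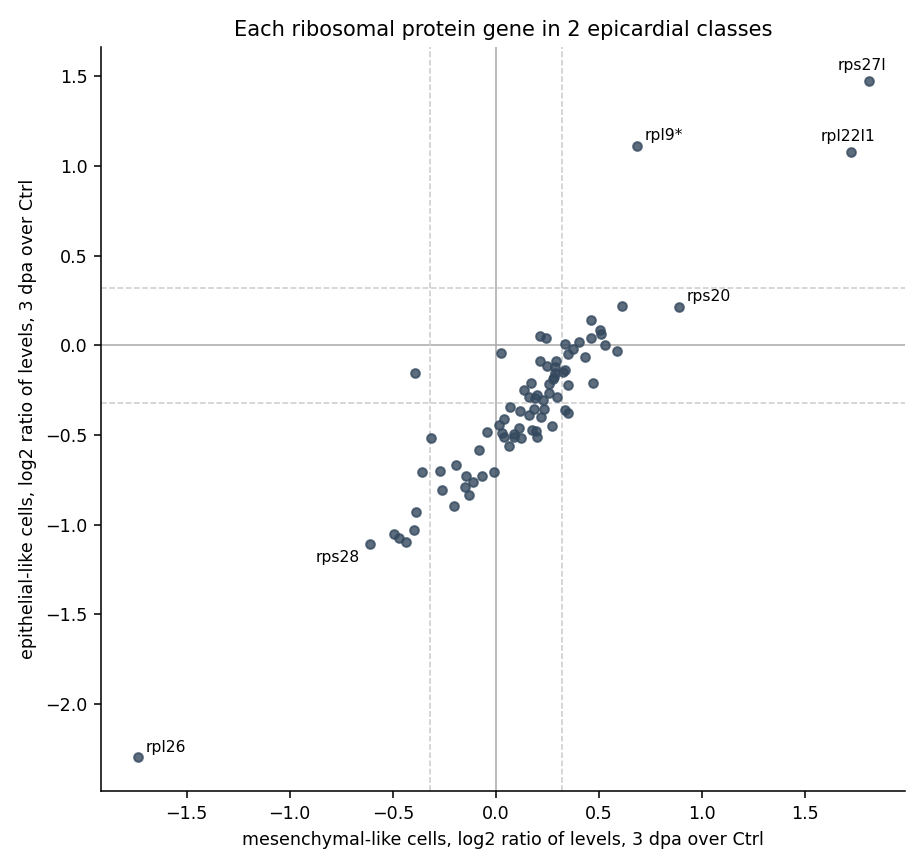
Ratio of each tested member's level at 3 dpa over Ctrl (log2) in mesenchymal-like cells (x axis) and epithelial-like cells (y axis); dashed lines mark a level 25% higher or 20% lower, and the starred rpl9 entry is the one named RFC1 in the reference table. rps27l and rpl22l1 lie at 1.81 and 1.72 on the x axis, rpl26 at -1.74, and 46 of 82 members lie above 0 on the x axis and below 0 on the y axis.

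Across the 2 classes, 46 of the 82 members tested in both were higher at 3 dpa than at Ctrl in mesenchymal-like cells and lower in epithelial-like cells, which is 56.1% of the members beside 10.4% of the 7504 genes tested in both. Under median scaling, tried after seeing the data, it was 44 members (53.7%) beside 15.9% of all genes. Past the fold, rps6 was among those higher in mesenchymal-like cells and lower in epithelial-like cells, and none went the other way. rplp2, rps28, rps27.2, rpl26, rpl38, rps21, rpl29 and rpl22 were lower past the fold in both. rpl22l1, rps27l and the rpl9 entry named RFC1 were higher past it in both. How many of all genes passed the fold in both classes is not given here, so these overlaps have no base to be set against.

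The aEPC-like cells at 3 dpa held a slightly lower share than the epithelial-like cells of the same library, 28.3% against 29.9% (ratio 0.9447, 0.9434 to 0.9460), and relative to the median shift of all genes (0.24 on the log2 scale) the ratio was 0.7995. Of 83 members, 3 were higher past the fold (46.1% of all genes) and 1 was lower (23.0% of all genes). The 3 were rpl7l1, with 1.39 UMIs per 10000 in aEPC-like cells and 0.528 in epithelial-like cells, and the rpl9 and rpl37 entries named RFC1 and COA1, none of them a ribosomal subunit. The 1 lower member was rplp2, with 9.58 against 14.6, and the next lowest were rpl24 and rps2, each at a ratio of 0.819. After each cell was thinned to 1800 UMIs to call cells with a UMI of a cell cycle gene, the 136 aEPC-like cells with one had a share of 27.8% and the 342 without had 28.5%. The aEPC-like cells were much deeper, at a median of 28864 UMIs against 14306 in epithelial-like cells.

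Genes that assemble ribosomes stood apart from the genes that form them in aEPC-like over epithelial-like cells, but not in each comparison. Ribosome biogenesis factors, which process ribosomal RNA and assemble subunits, summed to 46.7 UMIs per 10000 in aEPC-like cells against 23.6 in epithelial-like cells at 3 dpa, and 79 of 85 tested were higher past the fold, beside 46.1% of all genes. In the same comparison 73 of 74 mitochondrial ribosomal proteins were higher, with sums of 37.2 against 16.4, and so were 34 of 60 initiation factors. Their median log2 ratios were 1.26, 1.19 and 0.51, beside 0.24 over all genes and -0.07 over the members. Between conditions the biogenesis factors were mostly lower at 3 dpa than at Ctrl in both classes: 56 of 86 were lower past the fold in mesenchymal-like cells (31.6 against 46.8 UMIs per 10000), beside 27.3% of all genes, and 65 of 80 in epithelial-like cells (23.6 against 48.9), beside 21.4% of all genes. The members were mostly lower as well in epithelial-like cells, with a median log2 ratio of -0.35 beside -0.71 for the biogenesis factors. In mesenchymal-like cells the 2 medians were 0.19 and -0.55. Of the mitochondrial ribosomal proteins, 45 of 70 were higher past the fold at 3 dpa in mesenchymal-like cells, where 40.7% of all genes were. In epithelial-like cells 35 of 69 were higher, near the 52.6% of all genes, and their median log2 ratio of 0.33 lay below the 0.37 of all genes. Elongation factors summed to 178 at 3 dpa against 149 at Ctrl in mesenchymal-like cells and to 149 against 181 in epithelial-like cells, on the same sides of 1 as the members.

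**Figure D5:**
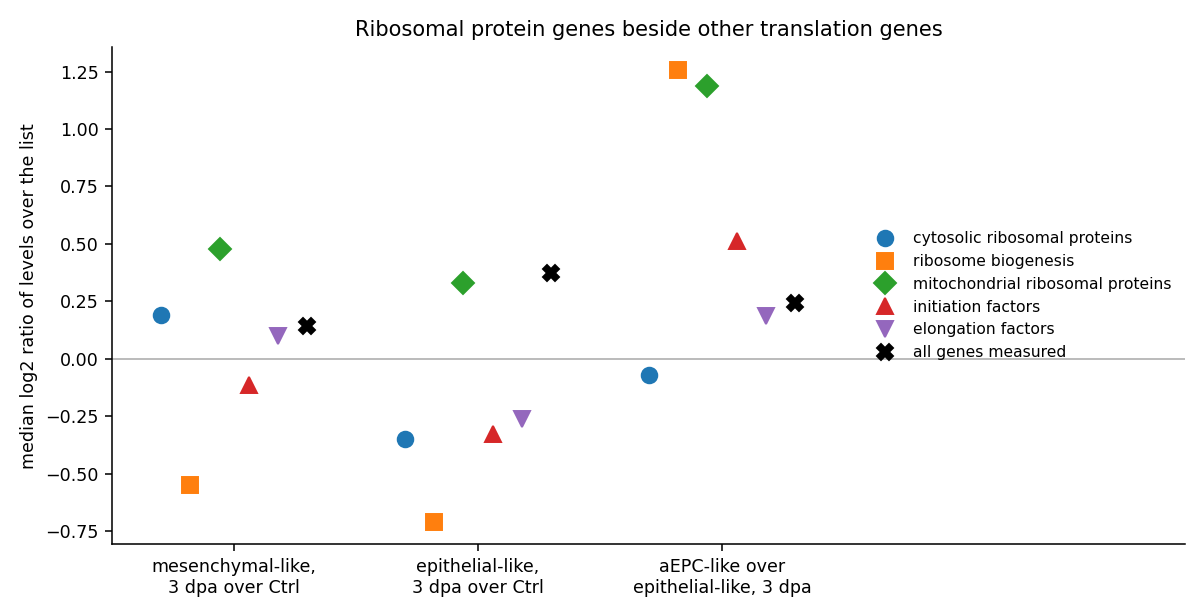
Median log2 ratio of levels (y axis) over the 84 genes, 4 other lists of translation genes and all genes measured, in 3 comparisons (x axis). In aEPC-like over epithelial-like cells the members lie at -0.07 while ribosome biogenesis lies at 1.26 and mitochondrial ribosomal proteins at 1.19.

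Across the 24 groups of class and library, most members followed one shared course. The Pearson correlation of a member's level with the summed level of the other members was at least 0.9 for 50 of the 82 members with enough UMIs, with a median of 0.93, beside a median of -0.19 over 6212 other genes. The 24 points share libraries and depth, so these values are descriptions. Among other genes, those most alike included faua (0.99), rack1 (0.97), RPL37A (0.97) and rpsa (0.96), which encode further ribosomal proteins or a ribosome-bound scaffold, followed by pabpc1a (0.90), si:dkey-151g10.6 (0.89), eif3k (0.87), eef1g (0.87) and eef1b2 (0.87). The 5 members under 0.5 were rpl26, rps27l, rps19bp1, rpl7l1 and the rpl9 entry named RFC1, and rpl7l1 ran opposite at -0.79. Of the 6 genes outside the rule, 4 were lower and 1 higher past the fold in epithelial-like cells at 3 dpa than at Ctrl (152 against 209 UMIs per 10000 in sum), beside 21.4% and 52.6% of all genes.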

How the data were processed

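Droplet-based 3′ single-cell libraries (10x Genomics, v3 chemistry) were made by the authors from sorted nucEGFP+ ventricular cells, and the deposited values are UMI counts per gene and barcode from Cell Ranger 3.0.2 with the GRCz10 build, per the labels. No normalization had been applied. Each condition had 1 library. Droplets with more than 316 genes and at most 5% mitochondrial UMIs were kept. Genes seen in fewer than 5 cells or 0.2% of the cells of a library were set aside for clustering, which used Seurat 5.3.0 and sctransform 0.4.2 (3000 variable genes, 20 components, resolution 0.3) without the 84 members and the pathway lists. A cluster was named when at least 50% of a marker list, and at least 3 markers, were 1.5-fold higher in it than elsewhere. Those markers also had to be seen in at least 10% of its cells. No other class could have more markers among the cluster's 10 leading genes. The mesenchymal-like name could also come from any of 3 subset lists. Its clusters raised 45%, 40% and 35% of the mesenchymal list and 100% of 1 subset list each. Scrublet's own call marked 1, 0 and 1 droplets and was not used. Doublets were left in, and an alternative removed the highest scores, 0.8% per 1000 droplets.

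UMI counts were summed per class and library and given per 10000 UMIs, so shares, levels and ratios carry exact 95% intervals for counting error, with PCR copies of a molecule counted once by UMI. No p-value was computed, since cells are not replicates. A member was counted past the fold when its level was at least 25% higher or 20% lower and both groups together held 100 UMIs. The text names the 10 highest members, the 3 highest and 3 lowest ratios of each of 7 comparisons, paralog pairs, the members that are no subunit and the genes most alike across groups. Members named for a shift in all 7 groups of cells, or in comparisons beyond those 7, were chosen after their values were seen. Members and lists were chosen with earlier results of these data known. Alternatives were other filters, clusterings, weightings and scalings. Interval code was tested on simulated data. Gene sequences and coordinates were not used here, and a few members that the naming rule covers are not reported here.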

Additional observations from a re-analysis of the deposited data

Results flagged for a closer look

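The summed ribosomal protein share was lower after amputation than at Ctrl in epithelial-like cells and higher in mesenchymal-like cells taken as 1 class, though not in each subset. Its ratio over Ctrl was 0.814 in epithelial-like cells and 1.14 in mesenchymal-like cells at 3 dpa, and 0.875 and 1.02 at 7 dpa. In the tnfsf12 subset the share was 38.3%, 36.9% and 35.7% at Ctrl, 3 dpa and 7 dpa, lower at both times. In the inhbb subset it was 24.7% at Ctrl and 24.4% at 7 dpa, while the ptger2b subset was higher at both times. These subset directions are those of summed UMIs, and some differed by other measures. Among cells of 5000 to under 10000 UMIs, the tnfsf12 subset had 40.3% at 3 dpa against 39.6% at Ctrl. In that window the ptger2b subset had 27.9% at 7 dpa against 30.0% at Ctrl. As a mean of single-cell shares, the inhbb subset had 23.0% at 7 dpa against 22.6% at Ctrl. Each class had 1 library per condition, so the difference between the classes was not tested, and among cells of 5000 to under 10000 UMIs the mesenchymal-like ratios were 1.02 at 3 dpa and 0.934 at 7 dpa.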

How the results depend on the processing

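The 7 share ratios of the report are given here in 1 order: mesenchymal-like 3 dpa and 7 dpa over Ctrl, epithelial-like 3 dpa and 7 dpa over Ctrl, epithelial-like over mesenchymal-like at Ctrl and at 3 dpa, and aEPC-like over epithelial-like at 3 dpa. As a mean of single-cell shares they were 1.19, 1.008, 0.8468, 0.8526, 1.43, 1.018 and 0.8982, with the sixth on the other side of 1. Under median scaling they were 1.028, 0.979, 0.6286, 0.857, 1.267, 0.7734 and 0.7995, with the second on the other side of 1. Under the other filters and clusterings all 7 kept their side of 1, and the values that moved by more than counting error are the following. With a mitochondrial limit of 10% they were 1.143 (the first), 0.8101 (the third), 0.8708 (the fourth), 0.9122 (the sixth) and 0.9474 (the seventh). With at least 1000 UMIs per cell they were 1.141 (the first), 1.02 (the second), 0.8101 (the third), 1.284 (the fifth), 0.9116 (the sixth) and 0.9544 (the seventh). At resolution 0.5 they were 1.147 (the first), 1.011 (the second), 0.8199 (the third), 0.9185 (the sixth) and 0.963 (the seventh). After log normalization they were 1.165 (the first), 1.01 (the second), 0.8358 (the third), 1.265 (the fifth), 0.9071 (the sixth) and 0.9625 (the seventh). With the members kept in clustering they were 1.141 (the first), 0.9163 (the sixth) and 0.9501 (the seventh). Without the highest doublet scores they were 1.016 (the second), 0.8012 (the third), 0.8664 (the fourth), 1.304 (the fifth), 0.9192 (the sixth) and 0.9478 (the seventh). The aEPC-like class at 3 dpa held 779 cells at resolution 0.5 and 1440 after log normalization, against 480 in the report's classes. The seventh ratio under those settings therefore compares other sets of cells.

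Counts of members past the fold moved most under median scaling, to 10 higher and 14 lower in mesenchymal-like cells at 3 dpa, 73 lower in epithelial-like cells at 3 dpa, 1 higher and 64 lower for epithelial-like over mesenchymal-like at 3 dpa, and 37 lower for aEPC-like over epithelial-like. Epithelial-like over mesenchymal-like at 3 dpa had 4 lower at resolution 0.5, 9 after log normalization and 1 with members kept in clustering. With a minimum of 20 UMIs, mesenchymal-like cells at 7 dpa had 5 higher and aEPC-like over epithelial-like had 2 lower, and after log normalization the aEPC-like comparison had 0 lower. The shares of all genes past the fold under these alternatives are not given here, so these counts of members have no base to be set against. The log2 ratio of rpl7l1, epithelial-like over mesenchymal-like at 3 dpa, was 0.05844 after log normalization and -0.62 in the report's classes.

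In cells of 5000 to under 10000 UMIs, an alternative chosen after seeing the data, the first 6 ratios were 1.021, 0.9339, 0.9329, 0.8177, 1.157 and 1.057, with the second and the sixth on the other side of 1, and under 50 aEPC-like cells were left. Members past the fold then numbered 8 higher in mesenchymal-like cells at 3 dpa and 4 lower at 7 dpa, 5 higher and 25 lower in epithelial-like cells at 3 dpa, 1 higher and 37 lower at 7 dpa, and, for epithelial-like over mesenchymal-like, 15 higher and 1 lower at Ctrl and 1 lower at 3 dpa. The shares of all genes past the fold in this window are not given here, so these counts of members have no base to be set against. The causes were not tested. Leaving out a replicate could not be done with 1 library per condition. No paired analysis was possible because each condition had 1 library. Depth limits the lowest members, such as rpl26, and the groups of under 100 cells.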
